A study of Mus musculus with 9 samples.

Results

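The D-type cyclin genes Ccnd1, Ccnd2 and Ccnd3 and the genes of their kinase partners, Cdk4 and Cdk6, were followed across 9 mouse expression arrays. Every probe set that the platform annotation assigned to exactly 1 of these 5 symbols was taken. A probe set is a group of short probes that read 1 stretch of a transcript, usually near its 3′ end. This gave 19 of the 45101 probe sets on the array: 3 for Ccnd1, 7 for Ccnd2, 3 for Ccnd3, 3 for Cdk4 and 3 for Cdk6. Of the 19, 17 passed the filter on dim probe sets, which asked for 3 or more arrays of the 9 with a value above their own 40th percentile. The 2 that did not pass were Ccnd3 probe sets.

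The arrays came from 3 groups of 3 samples, which the series describes as independent biological repeats without saying what was repeated. Both groups of embryonic stem cell-derived retinal progenitor cells (ESC-RPCs) started from 46C, a mouse embryonic stem cell line made by gene targeting in E14Tg2a.IV cells. Their embryoid bodies formed over 3 days in serum-free medium with SB431542, which blocks the ALK4, ALK5 and ALK7 receptors. The embryoid bodies were plated in medium free of retinoic acid. Sox1+ cells (35.8%) were sorted at day 7 and grown with DAPT (10 µM), which stops the processing of Notch receptors, and bFGF (20 ng/ml). Untreated ESC-RPCs received nothing further, and the DKK1-treated ones were given DKK1, a secreted antagonist of Wnt signalling, at 1 ng/ml for 1 day. Primary RPCs were dissociated from the neural retina of C57 pups at postnatal day 1, and 1 label calls them cultured. No sort is given for them. The genetic background, the origin in culture or in the eye, and the sort differ together between ESC-RPCs and primary RPCs. SB431542, DAPT and bFGF are likewise named for both ESC-RPC groups and for no primary sample. The parts of all these cannot be told apart in any comparison of these cells.

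D-type cyclins link growth factor signals to the cell cycle. Each binds CDK4 or CDK6, and the active kinase phosphorylates the retinoblastoma protein and its relatives, which then release E2F transcription factors that switch on genes for DNA replication. The INK4 proteins block CDK4 and CDK6 directly, and the CIP/KIP proteins block later cyclin kinases and also help to assemble the D cyclin complexes. In the developing mouse retina Ccnd1 is the main D cyclin of dividing progenitors, and mice without it have small retinas. Ccnd1 and Myc are known Wnt targets in several tissues.

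Values are MAS5 intensities on a linear scale, scaled by array, and log2 differences are from limma with their standard errors. A call means a Benjamini-Hochberg adjusted p below 0.05 in limma over all 29052 probe sets that passed the filter. Intensities of different probe sets have different probe affinities, so no level is set against that of another gene. The 40th percentile lay between 44.7 and 52.9 on the 9 arrays, and a probe set below it is called dim, since no detection call was used. No values were identical between arrays. The ratio of 3′ to 5′ signal of Actb, a measure of RNA integrity, was 1.32 to 1.37 on the ESC-RPC arrays and 1.22 to 1.26 on the primary arrays. That of Gapdh was 0.745 to 0.792 and 0.725 to 0.757. The Actb ratio moved with the groups, and its part in the differences below was not tested.

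Against primary RPCs, ESC-RPCs had far more Ccnd2, less Ccnd1 and Cdk6, and small differences in Ccnd3 and Cdk4. In untreated ESC-RPCs 17 of 17 member probe sets were called against primary RPCs, 11 higher and 6 lower. Over all probe sets 47.5% were called in this comparison, 23.4% higher and 24.1% lower, so a call by itself was common. In DKK1-treated ESC-RPCs 15 of 17 were called against primary RPCs, 9 higher and 6 lower, beside 47.6% of all probe sets, 23.3% higher and 24.2% lower. One of these, Ccnd2 1416124_at, was dim on all 3 primary arrays and passed the filter only through the ESC-RPC arrays, where it was high, so its call adds nothing. Of the other 16, 16 were called in untreated cells, 10 higher and 6 lower, and 14 in treated cells, 8 higher and 6 lower. The comparisons share the primary arrays. The median log2 difference over all probe sets was -0.03 in both.

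**Figure D1:**
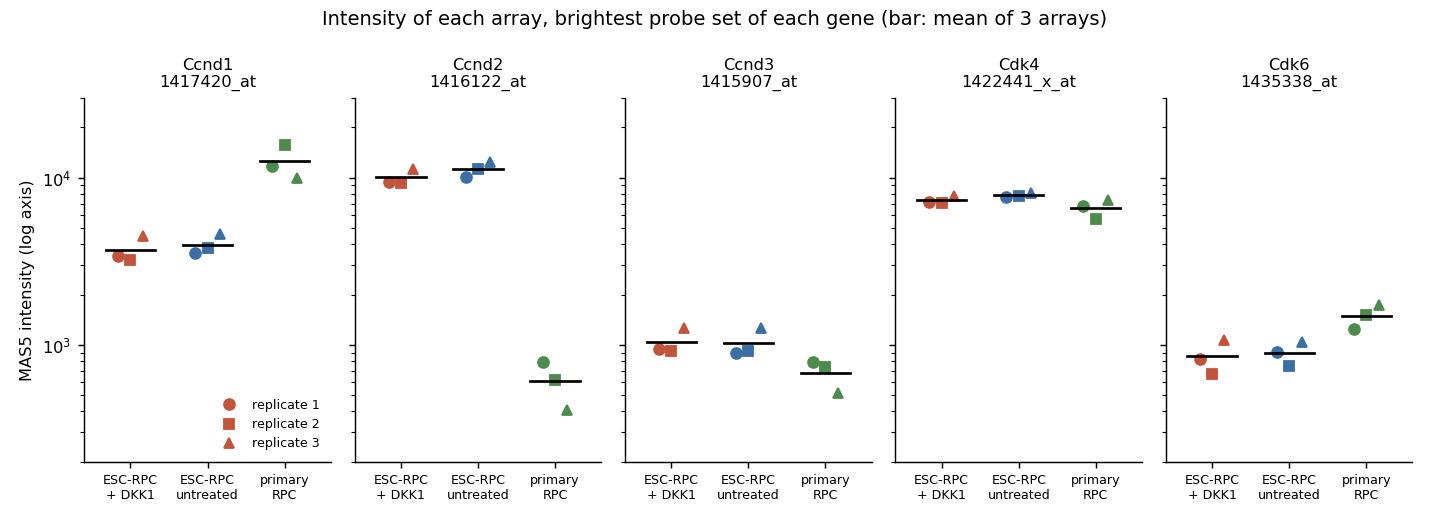
MAS5 intensity (log axis) of the brightest probe set of each gene on each of the 9 arrays, by group, with a bar at the mean of 3 arrays and a symbol for each replicate number. Ccnd1 and Cdk6 are higher on all 3 primary arrays than on any ESC-RPC array, Ccnd2 and Ccnd3 are lower on all 3, and the DKK1-treated and untreated arrays overlap in every panel. Heights are not comparable between panels.

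Ccnd1 was highest in primary RPCs. Its brightest probe set, 1417420_at, read 11776, 15796 and 10004 in primary RPCs, 3545, 3789 and 4606 in untreated ESC-RPCs and 3408, 3217 and 4510 in DKK1-treated ESC-RPCs. The primary arrays lay above all 6 others, while the ESC-RPC groups overlapped. The log2 difference from primary RPCs was -1.64 ± 0.17 (95% confidence interval -2.01 to -1.26, limma adjusted p = 1.98e-05) in untreated cells and -1.74 ± 0.17 (limma adjusted p = 1.21e-05) in treated cells. The intensity was thus 3.11-fold and 3.35-fold higher in primary RPCs. The other Ccnd1 probe sets ran the same way with different sizes. At 1448698_at the means were 10575 ± 3217 (SD, n = 3) in primary, 2486 ± 309 in untreated and 2239 ± 288 in treated cells, a log2 difference of -2.05 and -2.21. At 1417419_at they were 5406 ± 1295, 2081 ± 265 and 1841 ± 377, with differences of -1.36 and -1.55. All these Ccnd1 calls held when any of the 9 arrays was left out. Primary replicate 2 was the highest array for each Ccnd1 probe set, and without it the difference at 1417420_at in treated cells was -1.56.

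Summed marker levels of several cell types moved with Ccnd1. The summed intensity of 11 retinal progenitor genes was 45084 to 51260 on the primary arrays, 27067 to 29921 on the untreated and 25923 to 29426 on the DKK1-treated arrays, and Rax, an eye field gene, was dim on all 3 treated arrays. The genes of this list did not move together: against primary RPCs 7 of the 11 were called lower and 3 higher in each comparison. The higher ones in untreated cells were Sox2 at 0.30, Fgf15 at 1.52 and Sfrp2 at 1.56, and Hes5, at 0.39, was not called. The sum over 8 photoreceptor genes was 47140 to 66168 in primary RPCs and 6419 to 7835 over the ESC-RPC arrays, where Crx, Nrl, Rcvrn, Sag and Pdc were dim on all 6. Pax6, a homeobox gene of retinal progenitors, measured 10035 ± 1063 in primary and 1323 ± 193 in untreated cells. The sum over 7 retinal ganglion cell genes was 13346 to 20490 in primary, 10071 to 10521 in untreated and 9420 to 9939 in treated cells. That over 8 amacrine and horizontal cell genes was 7008 to 7987, 4025 to 4412 and 4060 to 5141. In each of these lists 5 genes were called lower and 2 higher in both comparisons. The sum over 8 endothelial genes was 464 to 636 on the ESC-RPC arrays and 5889 to 7715 on the primary arrays, and that over 8 microglia and macrophage genes was 115 to 223 and 926 to 1618. The endothelial genes did not move together. Of the 5 past the filter, 1 was called higher and 2 lower in ESC-RPCs in each comparison. Their median log2 difference was 0.54 in untreated and 0.27 in treated cells, opposite to the sum. Dim on all 9 arrays were Tek and Tie1, and dim on the 6 ESC-RPC arrays were Cdh5, Ctss, C1qa, C1qb, C1qc, Aif1 and Tyrobp. The part of these cell types in the Ccnd1 difference was not tested. In such bulk samples fewer cells of a type and less RNA per cell cannot be told apart.

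Ccnd2 showed the widest difference among the D cyclins. At its brightest probe set, 1416122_at, the values were 10114, 11341 and 12368 in untreated ESC-RPCs, 9487, 9332 and 11314 in DKK1-treated ESC-RPCs and 790, 616 and 408 in primary RPCs. Every ESC-RPC array lay far above every primary array. The log2 difference from primary RPCs was 4.27 ± 0.19 (95% confidence interval 3.84 to 4.69, limma adjusted p = 3.37e-08) in untreated cells, or 19.3-fold. It was 4.10 ± 0.19 (limma adjusted p = 4.30e-08) in treated cells, or 17.2-fold. Only 414 of the 29052 probe sets (1.43%) differed more in absolute log2 terms between untreated ESC-RPCs and primary RPCs.

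The 6 Ccnd2 probe sets above the 40th percentile on all 9 arrays were called in the same direction, with log2 differences of 4.27 to 4.94 in untreated and 4.10 to 4.85 in treated cells. The widest was at 1416123_at, which read 1827, 1882 and 2592 in untreated and 83.5, 74.9 and 49.6 in primary RPCs. Its primary signal was weak, with replicate 3 near the 40th percentile of that array, 44.9. Under the alternatives its untreated difference was as low as 4.64. At the seventh, 1416124_at, the primary values of 33.9, 35.1 and 23.7 were dim on all 3 arrays, so that only a bound holds. Set against the 40th percentile of those arrays, untreated ESC-RPCs were at least 12.5-fold higher and treated ESC-RPCs at least 9.83-fold higher. At the other 6 a low Ccnd2 signal was thus measured in primary RPCs. Primary replicate 3 was the lowest array at each of the 7. The names 1448229_s_at and 1455956_x_at carry suffixes that mark probes which may also match other transcripts. The remaining Ccnd2 probe sets, without such a suffix, gave differences in the same range.

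The sum over 8 mesenchyme genes was 17375 to 21389 on the ESC-RPC arrays and 492 to 754 on the primary arrays. For 8 pluripotency genes it was 17979 to 22252 and 275 to 348, and Nanog was dim in primary RPCs and measured 2103 ± 299 in untreated and 2331 ± 213 in treated ESC-RPCs. Sox1, the gene on which the ESC-RPCs were sorted, was dim on all 3 primary arrays and measured 2831 ± 59.8 in untreated and 2886 ± 333 in treated cells. The sum over 8 genes of Müller glia and astrocytes was 26379 to 29191 on the ESC-RPC arrays and 10220 to 12494 on the primary arrays, where Gfap and Aqp4 were dim. Of these 8, 6 were called higher and 2 lower in both comparisons, with a median log2 difference of 2.01 in untreated and 2.25 in treated cells. These marker levels moved with Ccnd2, and their part in its difference was not tested.

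Ccnd3 was higher in ESC-RPCs by a small margin. The probe set 1415907_at read 893, 922 and 1253 in untreated, 948, 922 and 1264 in DKK1-treated and 787, 738 and 515 in primary cells. The 3 primary arrays were the lowest, by a narrow gap to untreated replicate 1. The log2 difference was 0.60 ± 0.19 in untreated cells (limma adjusted p = 0.0249) and 0.63 ± 0.19 in treated cells (limma adjusted p = 0.0193). These calls rested on single arrays. Without primary replicate 3 the differences were 0.41 (limma adjusted p = 0.0874) and 0.44 (limma adjusted p = 0.0677). Without untreated replicate 3 the untreated difference was 0.44 (limma adjusted p = 0.104), and without treated replicate 3 the treated difference was 0.48 (limma adjusted p = 0.0800). The untreated call was also lost without the intensity trend in limma (adjusted p = 0.0529). The other Ccnd3 probe sets, which were not tested, read 4.98 to 34.5 at 1438805_at and 3.79 to 72.9 at 1444323_at over the 9 arrays. The first was dim on all 9 and the second on 7 of the 9.

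The kinase genes differed less than Ccnd1 and Ccnd2 between ESC-RPCs and primary RPCs, and in opposite directions. At Cdk4, 1422441_x_at read 7684, 7792 and 8115 in untreated, 7183, 7077 and 7808 in treated and 6807, 5662 and 7350 in primary cells. This probe set is the brightest of Cdk4 and stands for it in the ratios and profiles below. Its suffix also marks probes which may match other transcripts. The untreated arrays lay above the primary arrays, and the treated arrays overlapped with them. The log2 difference was 0.26 ± 0.09 in untreated cells (limma adjusted p = 0.0338) and 0.16 ± 0.09 in treated cells (limma adjusted p = 0.161). At 1422440_at it was 0.33 ± 0.10 in untreated cells (limma adjusted p = 0.0162) and 0.22 ± 0.10 in treated cells (limma adjusted p = 0.0839). At 1422439_a_at it was 0.26 ± 0.07 (limma adjusted p = 0.00752) and 0.18 ± 0.07 (limma adjusted p = 0.0370). In fold terms the untreated Cdk4 differences were 1.19 to 1.26.

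The Cdk4 calls were sensitive to single arrays. The untreated call at 1422441_x_at was lost without treated replicate 1, without any 1 of the 3 untreated replicates or without primary replicate 2, which gave 0.15 to 0.28 (limma adjusted p of 0.0503 to 0.0965). It was also lost with no filter, quantile normalisation, one median for all arrays, no intensity trend or only the 6 arrays compared (limma adjusted p of 0.0515 to 0.102). The untreated call at 1422440_at was lost without the intensity trend (limma adjusted p = 0.0580). The treated call at 1422439_a_at was lost without any 1 of the 3 treated replicates, untreated replicate 1 or 2, or primary replicate 1, at 0.15 to 0.21 (limma adjusted p of 0.0514 to 0.119). It was also lost in 4 of 7 other settings. Without primary replicate 3 the treated differences at 1422440_at and 1422441_x_at reached 0.33 (limma adjusted p = 0.00952) and 0.24 (limma adjusted p = 0.0408).

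Cdk6 was lower in ESC-RPCs. The probe set 1435338_at read 1245, 1515 and 1729 in primary, 908, 749 and 1035 in untreated and 819, 670 and 1074 in treated cells. The primary arrays lay above all ESC-RPC arrays. The log2 difference was -0.74 ± 0.19 in untreated cells (limma adjusted p = 0.00722) and -0.82 ± 0.19 in treated cells (limma adjusted p = 0.00384), which made primary RPCs 1.67-fold and 1.77-fold higher. At 1455287_at, which read 996, 1079 and 1125 in primary cells, it was -0.72 ± 0.16 (limma adjusted p = 0.00320) and -0.86 ± 0.16 (limma adjusted p = 0.00105). Both probe sets kept their calls without any 1 of the 9 arrays. The dimmer probe set 1460291_at read 79.5 to 94.9 in primary cells and 45.3 to 69.8 in ESC-RPCs, near the 40th percentile. Its differences were -0.70 (limma adjusted p = 0.0418) and -0.72 (limma adjusted p = 0.0368). They lost the call in 7 of 9 and 5 of 9 fits that left out an array, at -0.58 to -0.79 (limma adjusted p of 0.0503 to 0.126). The arrays whose loss ended the call were all but untreated replicate 1 and primary replicate 2 for untreated cells. For treated cells they were the 3 treated replicates and primary replicates 1 and 3. Both calls were also lost with no filter or one median for all arrays, and the untreated call with quantile normalisation or only the 6 arrays compared (limma adjusted p of 0.0537 to 0.0865).

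**Figure D2:**
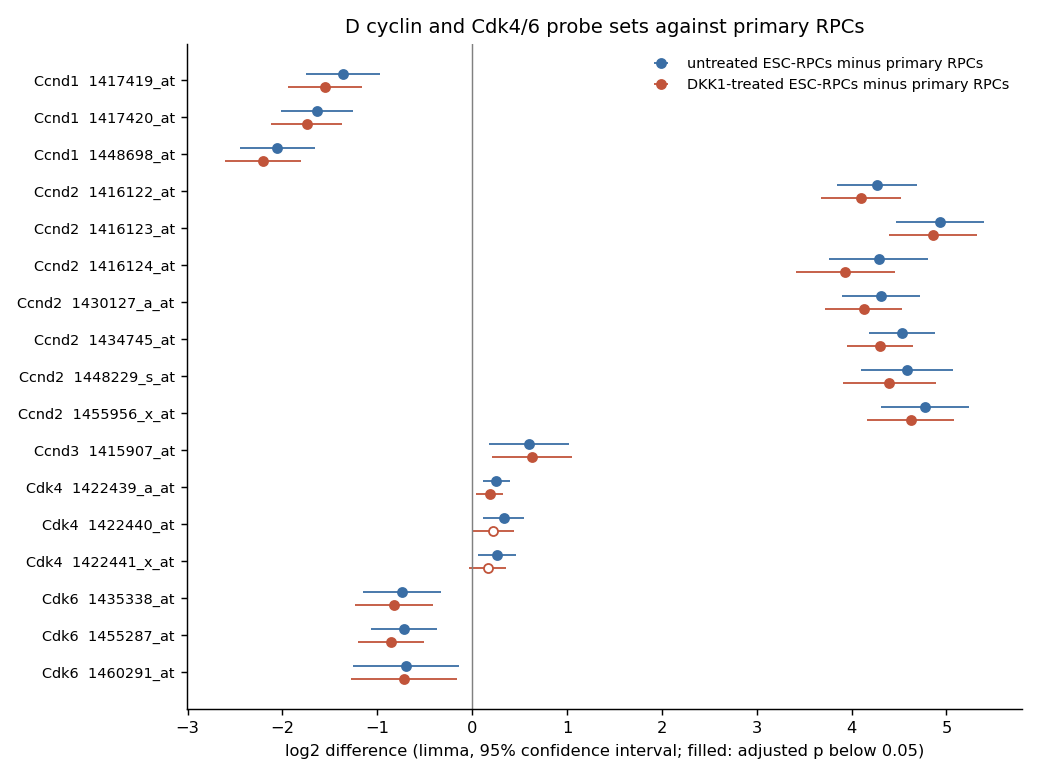
Log2 difference from primary RPCs (x axis, 95% confidence interval) for each of the 17 member probe sets, for untreated ESC-RPCs in blue and DKK1-treated ESC-RPCs in red, with filled points at a limma adjusted p below 0.05. The 6 Ccnd2 probe sets above the 40th percentile on all 9 arrays lie at 4.10 to 4.94, and the point of 1416124_at is a fitted value against a dim group, for which only the bound holds. The other points include the 3 Ccnd1 probe sets at -2.21 to -1.36, and the Cdk4 probe sets at 0.16 to 0.33. Both comparisons share the 3 primary arrays.

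Promoter sequence is shown for the kinase genes, whose transcripts differed in opposite directions. The sequences are the 250 bases before the RefSeq start on GRCm38.p6, 5′ to 3′ on the plus strand, from chr10:127063285-127063534 for Cdk4 and chr5:3343643-3343892 for Cdk6. Capitals mark the E-box CACGTG, a sequence that Myc and other bHLH factors bind.
Cdk4: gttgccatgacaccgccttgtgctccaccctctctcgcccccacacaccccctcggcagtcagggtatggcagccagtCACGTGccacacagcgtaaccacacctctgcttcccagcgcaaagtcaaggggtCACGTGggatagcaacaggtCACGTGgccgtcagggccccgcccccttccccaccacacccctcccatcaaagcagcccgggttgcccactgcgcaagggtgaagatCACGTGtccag
Cdk6: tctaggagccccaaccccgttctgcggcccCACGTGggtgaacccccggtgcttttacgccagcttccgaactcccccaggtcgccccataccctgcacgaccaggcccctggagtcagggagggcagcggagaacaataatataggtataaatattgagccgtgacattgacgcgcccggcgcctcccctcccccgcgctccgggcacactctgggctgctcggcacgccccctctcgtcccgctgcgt
The Cdk4 window held 4 E-boxes and the Cdk6 window 1. Of 32851 such windows in the RefSeq table, 6.02% held at least 1 and 7 (0.0213%) held at least 4. The motif reads the same on both strands, and no match overlapped another motif searched. The GC box GGGCGG, searched on both strands like all motifs, had 1 match before Cdk4 and 0 before Cdk6, and 32.7% of windows held it. The TCF/LEF-type motif CTTTGAT had 1 match before Cdk4 and 0 before Cdk6, and 3.21% of windows held it. The E2F-type motifs TTTGGCGC and TTTCCCGC had 0 matches in both windows, and 1.3% of windows held 1 or more. The table matched 3 of the 5 genes, with 2 windows for Ccnd3, which held 0 E-boxes. A match describes the letters in the window and was not measured as binding.

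Within-array ratios between members differed in value between ESC-RPCs and primary RPCs, though none passed the threshold of the ratio test. They are formed from the same probe set values as the differences above and are no separate support for them. The log2 ratio of Ccnd1 to Ccnd2 was 3.90, 4.68 and 4.62 in primary RPCs, -1.51, -1.58 and -1.43 in untreated and -1.48, -1.54 and -1.33 in DKK1-treated ESC-RPCs. Only the difference between groups can be read, since the probe sets have their own scales. That difference was -5.90 ± 0.26 in untreated cells, a 59.9-fold shift from Ccnd1 to Ccnd2, and -5.85 ± 0.26 in treated cells. The ratio of Ccnd2 to Ccnd3 shifted by 3.67 ± 0.14 and 3.47 ± 0.12, and that of Ccnd1 to Ccnd3 by -2.23 ± 0.16 and -2.37 ± 0.15. The ratio of Cdk4 to Cdk6 was higher by 1.00 ± 0.20 and 0.98 ± 0.22. In each of these the ESC-RPC and primary arrays did not overlap, and the two-sided exact permutation test gave p = 0.1, the smallest that 3 against 3 arrays allow. Adjusted over the 12 ratio tests this was 0.133, so no ratio passed the threshold. Between DKK1-treated and untreated cells the ratio of Ccnd1 to Ccnd3 differed by -0.14 ± 0.05 with no overlap, at the same exact permutation p = 0.1 (adjusted 0.133), and by -0.19 to -0.11 with an array left out. The ratios of Ccnd1 to Ccnd2 (0.06 ± 0.08), Ccnd2 to Ccnd3 (-0.20 ± 0.11) and Cdk4 to Cdk6 (-0.01 ± 0.20) overlapped between these groups.

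**Figure D3:**
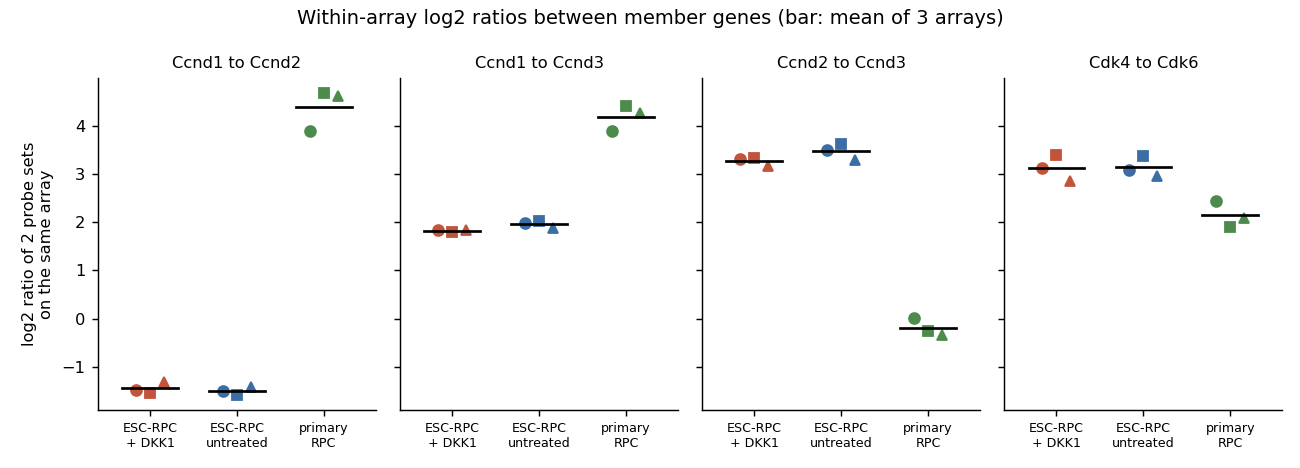
Log2 ratio of the brightest probe sets of 2 member genes on the same array, with a bar at the mean of 3 arrays. The Ccnd1 to Ccnd2 ratio is 3.90 to 4.68 on the primary arrays and -1.58 to -1.33 on the 6 ESC-RPC arrays. Only shifts between groups within a panel can be read, since each probe set has its own scale.

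Treatment with DKK1 for 1 day gave no called change in any member. In limma 0 of 17 member probe sets were called between DKK1-treated and untreated ESC-RPCs, beside 0% of all 29052, and 0 members had an unadjusted p below 0.05, beside 2.61% of all. The adjusted p was 1.00 for every member. The groups did not overlap at 1 of the 17, Cdk4 1422440_at, beside 11.4% of all probe sets. That probe set read 6429, 6405 and 7002 in treated and 7136, 7053 and 7209 in untreated cells, a log2 difference of -0.11 ± 0.10. The 95% confidence interval was -0.48 to 0.27 for Ccnd1 1417420_at, -0.59 to 0.26 for Ccnd2 1416122_at, -0.39 to 0.46 for Ccnd3, -0.30 to 0.10 for Cdk4 1422441_x_at and -0.49 to 0.32 for Cdk6 1435338_at. These intervals come from the fit of all 9 arrays without the replicate block, so the spread of the primary arrays is pooled into them. At Ccnd2 1416122_at the SD of log2 values was 0.48 in primary and 0.15 in both treated and untreated cells. The fit of the 6 ESC-RPC arrays with the block gave smaller standard errors at every member but Cdk6 1460291_at (0.28 against 0.25). At Ccnd2 1416122_at they were 0.04 against 0.19, but 0.21 with the block on all 9 arrays. The 6-array fit also left out the primary arrays, so its smaller errors cannot be put down to the block.

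The mean was lower after DKK1 at 16 of the 17 probe sets, the exception being Ccnd3. The median log2 difference over all probe sets was 5.0e-07. Between arrays of the same replicate number, the 3 Ccnd1, 7 Ccnd2 and 3 Cdk4 probe sets were lower in 3 of 3 pairs, by a mean log2 difference of -0.07 to -0.35. Cdk6 was mixed, with 3 of 3 pairs lower at 1455287_at, 2 of 3 at 1435338_at and 1 of 3 at 1460291_at. The shares of all probe sets with a lower mean, or lower in 3 of 3 pairs, were not counted. No joint drop of the members is thus read from these counts. Leaving out an array turned the direction at some of the member probe sets. Replicate 3 was the highest array of both ESC-RPC groups for the brightest probe sets of Ccnd1, Ccnd2, Ccnd3, Cdk4 and Cdk6. Taking the replicate number as a block in a fit of the 6 ESC-RPC arrays gave 61 calls over all probe sets (0.21%) and 0 of 17 members, with the smallest member adjusted p of 0.0938 in limma at Ccnd2 1448229_s_at. In this blocked limma fit 11 of 17 members had an unadjusted p below 0.05, beside 12.6% of all probe sets. The pairing was itself taken from these values, so the blocked p-values are no separate support for a change. The 11 belong to Ccnd1, Ccnd2 and Cdk4. Probe sets of 1 gene read the same transcript and are not independent. The mean over the pairs in that fit was -0.17 at Ccnd2 1416122_at (unadjusted p = 0.00193, limma adjusted p = 0.127) and -0.11 at Ccnd1 1417420_at (unadjusted p = 0.0462, limma adjusted p = 0.385).

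**Figure D4:**
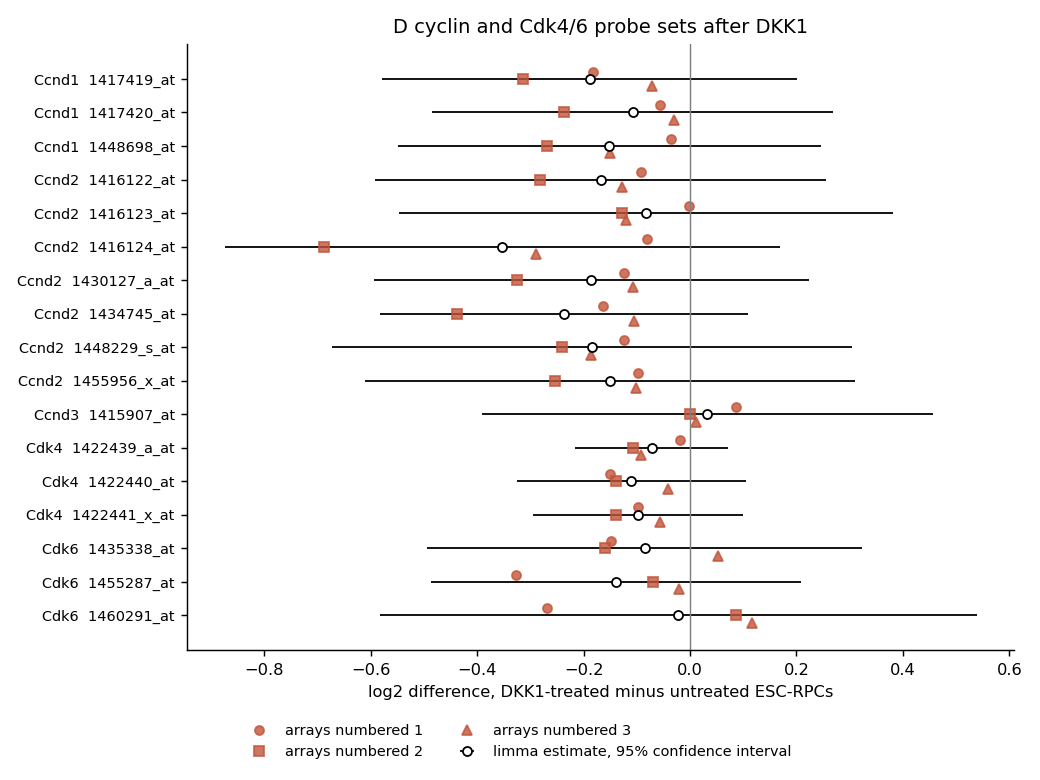
Log2 difference between DKK1-treated and untreated ESC-RPCs (x axis) for the 17 member probe sets, with the limma estimate and its 95% confidence interval in black and the differences between arrays of the same replicate number in red. The intervals come from the fit without the replicate block. All 17 include 0, and all 3 red symbols of each Ccnd1, Ccnd2 and Cdk4 probe set lie below 0.

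Axin2, a feedback target of Wnt signalling, measured 608 ± 39.7 in treated and 791 ± 34.1 in untreated cells, a log2 difference of -0.38 ± 0.12 (unadjusted p = 0.00696, limma adjusted p = 1.00). Lef1, which binds beta-catenin, measured 744 ± 37.6 and 1089 ± 165, and Myc measured 561 ± 10.0 and 657 ± 71.7. Neither was called. Against primary RPCs, which measured 245 ± 21.7, Axin2 was higher by 1.70 ± 0.12 in untreated cells (limma adjusted p = 7.03e-07) and by 1.31 ± 0.12 in treated cells (limma adjusted p = 5.11e-06). Between the cell sources Ccnd2, Ccnd3 and Cdk4 had higher means in ESC-RPCs, like Axin2, and Ccnd1 and Cdk6 had lower ones. The part of Wnt signalling in these differences was not tested.

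The genes around the D cyclin kinases were then read from 10 lists of cell cycle genes, each gene by its brightest probe set. None of the lists had a called gene between DKK1-treated and untreated cells. Over the brightest probe sets of all 13320 genes 52.5% were called in untreated cells against primary RPCs, 26% higher and 26.6% lower. In treated cells 52.3% were called, 25.8% higher and 26.5% lower. The counts of each list are read against these shares. Of 7 CDK inhibitors, 2 were higher and 4 lower in untreated ESC-RPCs than in primary RPCs, with a median of -0.77, and the counts were the same in treated cells, with a median of -0.63. Cdkn2a, whose locus encodes the CDK4/6 inhibitor p16INK4a and the p53 activator p19ARF, measured 1029 ± 114 in untreated, 1007 ± 237 in treated and 95.04 ± 22.8 in primary cells. It was higher by 3.46 ± 0.21 in untreated cells (limma adjusted p = 2.60e-07) and 3.41 ± 0.21 in treated cells. Its probe set was not matched to either product. Cdkn2b, the neighbouring INK4 gene, was higher by 1.57 ± 0.17 and 1.51 ± 0.17. The remaining INK4 genes were lower, Cdkn2c at -1.35 ± 0.14 and -1.51 ± 0.14 and Cdkn2d at -0.77 ± 0.09 and -0.71 ± 0.09. Among CIP/KIP genes Cdkn1a differed by -1.47 ± 0.13 and -1.78 ± 0.13, and Cdkn1b by -0.81 ± 0.14 and -0.63 ± 0.14. Cdkn1c differed by 0.48 ± 0.20 and 0.29 ± 0.20 and was not called.

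Of the 3 pocket protein genes, which the kinases inactivate, 1 was higher and 1 lower. Rb1 was 2373 ± 5.99 in untreated, 2357 ± 43.7 in treated and 1970 ± 215 in primary cells, a difference of 0.27 ± 0.09 (limma adjusted p = 0.0254) and 0.26 ± 0.09 (limma adjusted p = 0.0296). This call was lost without any 1 of the untreated replicates or primary replicate 1 for untreated cells (0.26 to 0.28, limma adjusted p of 0.0525 to 0.0710). For treated cells it was lost without any 1 of the treated replicates or primary replicate 1 or 2 (0.19 to 0.28, limma adjusted p of 0.0582 to 0.0849). Both calls were also lost without the intensity trend or with only the 6 arrays compared, and the treated call with one median for all arrays (limma adjusted p of 0.0521 to 0.0736). Rbl1, which encodes p107, differed by -0.72 ± 0.18 and -0.79 ± 0.18, but with the mean of its probe sets by -0.23 and -0.11, neither called. Rbl2 differed by 0.21 ± 0.15 and 0.24 ± 0.15 and was not called.

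Of 10 E2F and DP genes, 3 were higher and 4 lower in untreated cells, with a median of -0.25, and 3 higher and 5 lower in treated cells, with a median of -0.37. The activator E2f3 was higher by 0.83 ± 0.21 and 0.74 ± 0.21, the latter not called with the mean of its probe sets (0.41, limma adjusted p = 0.0956). The partner gene Tfdp1 was higher by 0.68 ± 0.13 and 0.61 ± 0.13. E2f5, a pocket protein partner, was higher by 0.62 ± 0.12 and 0.67 ± 0.12, the latter not called with the mean of its probe sets (0.18, limma adjusted p = 0.1002). The activators E2f1 and E2f2 were lower. E2f1 measured 464 ± 94.3 in untreated, 342 ± 9.07 in treated and 933 ± 188 in primary cells, a difference of -1.01 ± 0.18 and -1.43 ± 0.18. E2f2 differed by -1.09 ± 0.24 and -1.55 ± 0.24. The repressors E2f7 and E2f8 differed by -1.12 ± 0.29 and -0.88 ± 0.20 in untreated cells.

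**Figure D5:**
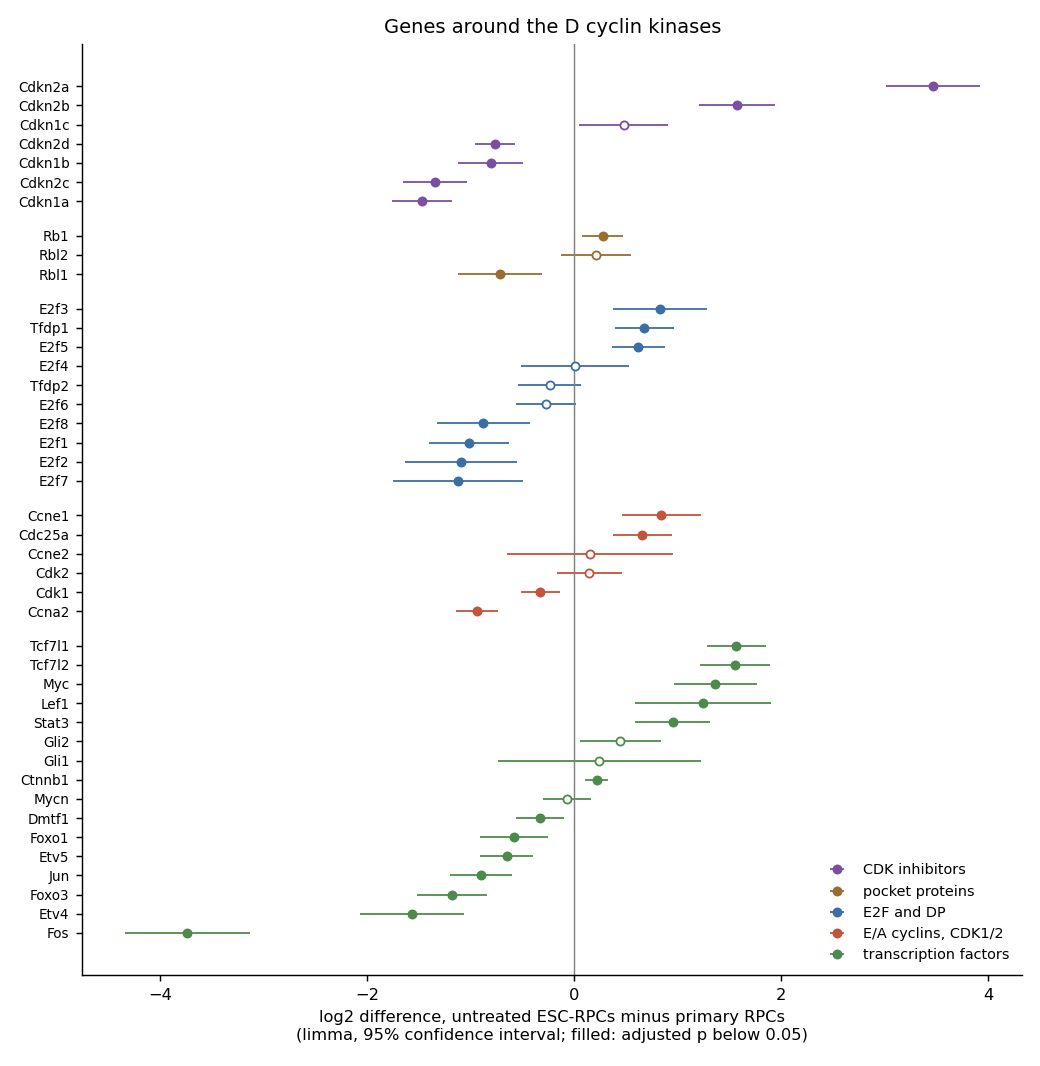
Log2 difference between untreated ESC-RPCs and primary RPCs (x axis, 95% confidence interval) for the measured genes of 5 lists, ordered within each list, with filled points at a limma adjusted p below 0.05. Each list holds called genes on both sides of 0, from Cdkn2a at 3.46 to Fos at -3.74.

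The next step of the cycle was mixed as well. Of 6 measured genes for E-type and A-type cyclins and their regulators, 2 were higher and 2 lower in both comparisons. Ccne1, which activates CDK2 at S phase entry, was higher by 0.84 ± 0.17 and 0.87 ± 0.17, and Cdc25a, a phosphatase that activates CDK2, by 0.65 ± 0.13 and 0.51 ± 0.13. Ccna2 was lower, at -0.94 ± 0.09 and -1.06 ± 0.09, and Cdk1 at -0.33 ± 0.09 and -0.46 ± 0.09. The untreated Cdk1 call was lost with one median for all arrays (-0.26, limma adjusted p = 0.0691). Of 19 measured G1/S genes regulated by E2F, 9 were higher and 2 lower in untreated cells, with a median of 0.48. In treated cells 8 were higher and 2 lower, with a median of 0.36. The median of -0.03 over all probe sets is not a like measure, since it is not limited to the brightest probe set of each gene. The 11 of 19 called in untreated cells lie near the share over all genes, and fewer of them were lower than higher. The largest were Orc1, of the origin recognition complex, at 1.89 ± 0.27 and 1.91 ± 0.27 and Tk1, a thymidine kinase, at 1.28 ± 0.14 and 1.10 ± 0.14. Rrm2, of ribonucleotide reductase, was higher by 0.63 ± 0.14 and 0.52 ± 0.14. Mcm6 and Ezh2 were lower, at -0.45 and -0.28 in untreated cells. The untreated Mcm6 call was lost without any array but primary replicate 3 (-0.22 to -0.52, limma adjusted p of 0.0520 to 0.147). It was also lost with the replicate block on 9 arrays (limma adjusted p = 0.0699), no filter, no intensity trend, the mean of its probe sets or only the 6 arrays compared (-0.38 to -0.45, limma adjusted p of 0.0676 to 0.120). The treated Mcm6 call, at -0.51, was lost without treated replicate 1 or 2, without the intensity trend or with the mean of its probe sets (-0.36 to -0.51, limma adjusted p of 0.0682 to 0.137). The untreated call of Ezh2 was lost with one median for all arrays (-0.21, limma adjusted p = 0.116).

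The summed intensity of 9 measured proliferation markers was 29546 to 35908 in primary, 31805 to 35807 in untreated and 27713 to 33938 in treated cells, which overlap. In both comparisons 2 were higher and 2 lower. Mki67 was lower, at -0.63 ± 0.11 and -0.72 ± 0.11, and Aurkb at -0.33 ± 0.12 and -0.47 ± 0.12. Ccnb2, a mitotic cyclin, was higher by 0.64 ± 0.11 and 0.49 ± 0.11, and Bub1, a mitotic checkpoint kinase, by 0.76 ± 0.13 and 0.70 ± 0.13. The direction of Bub1 turned with the mean of its probe sets, at -0.47 and -0.44. The untreated Aurkb call was lost without treated replicate 1, untreated replicate 1 or 2, or primary replicate 2 or 3 (-0.28 to -0.34, limma adjusted p of 0.0594 to 0.132), and with the mean of its probe sets (-0.04). It was also lost with quantile normalisation, one median for all arrays or no intensity trend (limma adjusted p of 0.0521 to 0.105). The treated Aurkb call was lost with the mean of its probe sets (-0.21, limma adjusted p = 0.188).

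Transcription factors that act on D cyclin genes split evenly, with 6 higher and 7 lower of 16 measured in untreated cells and 5 higher and 6 lower in treated cells. The Wnt pathway factors Tcf7l1 and Tcf7l2 were higher by 1.57 ± 0.13 and 1.55 ± 0.15 in untreated cells and by 1.82 ± 0.13 and 1.51 ± 0.15 in treated cells. Lef1 was higher by 1.24 ± 0.30 in untreated cells (limma adjusted p = 0.00555), and measured 0.70 ± 0.30 in treated cells (limma adjusted p = 0.0745). Myc was higher by 1.36 ± 0.18 and 1.14 ± 0.18, and Stat3, which cytokine signals activate, by 0.95 ± 0.17 and 1.08 ± 0.17. Fos and Jun, which form AP-1, were lower. Fos measured 4150 ± 1538 in primary, 299.7 ± 66.8 in untreated and 341 ± 45.6 in treated cells, a difference of -3.74 ± 0.27 and -3.53 ± 0.27, and Jun differed by -0.90 ± 0.14 and -0.83 ± 0.14. Etv4, an ETS factor downstream of FGF signalling, differed by -1.57 ± 0.23 and -1.48 ± 0.23, and Foxo3, a forkhead factor, by -1.18 ± 0.15 and -1.31 ± 0.15.

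Of 13 genes for the phosphorylation and turnover of D cyclins, 2 were higher and 3 lower in untreated cells, and 2 higher and 5 lower in treated cells. Gsk3b, a kinase that marks cyclin D1 for export and degradation, was higher by 0.39 ± 0.09 and 0.31 ± 0.09, the latter not called without treated replicate 2 (0.24, limma adjusted p = 0.0513). Skp1, a subunit of F-box ubiquitin ligases, was higher by 0.39 ± 0.08 and 0.27 ± 0.08, the latter not called without treated replicate 2 (0.20, limma adjusted p = 0.0636), without the intensity trend (limma adjusted p = 0.0735) or with quantile normalisation (0.15, limma adjusted p = 0.0963). Fbxo4, an F-box protein for cyclin D1, differed by -0.51 ± 0.26 in untreated cells, which was not called, and by -0.98 ± 0.26 in treated cells (limma adjusted p = 0.0104). Cryab, a small heat shock protein that acts with Fbxo4, was lower, at -1.93 ± 0.23 and -1.50 ± 0.23. Dyrk1a, a kinase of cyclin D1, was lower, at -0.45 ± 0.10 and -0.33 ± 0.10. Ambra1, the adaptor of a ubiquitin ligase for D cyclins, was lower, at -0.34 ± 0.11 and -0.39 ± 0.11. The Ambra1 call was lost in untreated cells without untreated replicate 1 or 3 or primary replicate 1 or 3 (-0.29 to -0.33, limma adjusted p of 0.0598 to 0.104). In treated cells it was lost without treated replicate 1 or 3 (-0.33 to -0.37, limma adjusted p of 0.0544 to 0.0635). Both Ambra1 calls were also lost with one median for all arrays, and the untreated call with the mean of its probe sets or only the 6 arrays compared (limma adjusted p of 0.0516 to 0.133). Of 5 measured genes for assembly and activation, 2 were higher and 1 lower in both comparisons. The chaperone gene Cdc37, whose product folds CDK4, was higher by 0.62 ± 0.16 and 0.56 ± 0.16. Hsp90aa1, which encodes its partner HSP90, was higher by 0.25 ± 0.05 and 0.22 ± 0.05, but by 0.01 and 0.04 with quantile normalisation, neither called. Its treated call was also lost without the intensity trend (limma adjusted p = 0.0711). Mnat1, a subunit of the CDK-activating kinase, was lower, at -0.69 ± 0.09 and -0.78 ± 0.09. Of 16 other cyclin and CDK genes, 3 were higher and 6 lower in untreated and 4 higher and 6 lower in treated cells. Ccng1, a p53 target, was higher by 1.16 ± 0.13 and 0.98 ± 0.13, and Cdk5, a kinase best known in neurons, by 0.98 ± 0.15 and 0.95 ± 0.15. Ccni was higher by 0.41 ± 0.11 and 0.37 ± 0.11, the latter not called without treated replicate 2 (0.33, limma adjusted p = 0.0548) or without the intensity trend (limma adjusted p = 0.0518). Lower were Ccny at -0.68 ± 0.08 and -0.70 ± 0.08, Ccng2 at -0.83 ± 0.17 and -0.74 ± 0.17, Cdk14 at -0.40 ± 0.09 and -0.44 ± 0.09 and Ccnt1, a cyclin of transcription, at -0.50 ± 0.10 and -0.54 ± 0.10. In treated cells Ccnt1 was not called with the mean of its probe sets (-0.23).

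Genes with the profile most like each member were taken by the smallest root mean square difference of log2 values, each centred on its mean over the 9 arrays, among 13320 genes. For Ccnd1 these were Efcab2 (0.103), Irx6 (0.130), a homeobox gene, and Zfp956 (0.144). For Ccnd2 they were Prrx1 (0.175), a homeobox gene of mesenchyme, Vcan (0.180), which encodes the matrix proteoglycan versican, and Sp8 (0.201), a zinc finger transcription factor. Irx6 was dim on 2 of the 3 treated arrays. Prrx1 and Sp8 were dim on all 3 primary arrays, with means of 31.9 and 38.9, so their likeness rests on a group with no level above the percentile. Vcan measured 4147 ± 270 in treated, 4235 ± 230 in untreated and 244 ± 71.7 in primary cells. For Ccnd3 they were Ankrd26 (0.103), the tetraspanin gene Cd151 (0.110) and Fbn2 (0.123), which encodes fibrillin-2. For Cdk4 they were Rcc2 (0.0344), Vezf1 (0.0406) and Zfand6 (0.0421), and for Cdk6 Hirip3 (0.0759), Wdr25 (0.103) and Wasf3 (0.118). The measure is not scaled to a gene's own variation, so a gene that varies little, such as Cdk4, lies close to others that vary little. Distances are therefore not comparable between members.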

How the data were processed

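RNA from 9 samples was measured on Affymetrix 3′ arrays. The deposited values are linear intensities, 1 for each probe set on each array, made with MAS5 per the submitters' processing notes, which name no version or settings. The mean of each deposited column after trimming 2% at both ends was 500.003, and the lowest value was 1. Arrays have no read depth, so their number limits the precision.

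Log2 was taken with no further normalisation. After 64 control probe sets were set aside and the filter applied, 29052 probe sets were fitted together over the 9 arrays (limma 3.58.1, R 4.3.3), with a mean for every group and an intensity trend. P-values were adjusted over all 29052 by the Benjamini-Hochberg method. They set each group difference against the spread between these samples within groups, as estimated by limma. The brightest probe set is that with the highest mean log2 value. Where all 3 arrays of a group were dim, a fold was computed against their 40th percentile and is printed as "at least". Gene names are those of the platform annotation in GEO, which gives 34945 probe sets 1 gene, 932 several and 9160 none.

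The member genes and the gene lists were chosen with earlier results of these data known. All member probe sets are named, the 3 genes most like each member, in each comparison up to 3 called genes per list and direction with the smallest adjusted p, and Rb1, E2f1, Ccne1, Cdkn1b, Cdkn2a, Mki67, Axin2, Lef1, Myc, Sox1, Pax6 and Nanog always. Cdkn1c and Rbl2 were named after their values were seen.

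Deviations from the group means correlated at 0.123, 0.195 and 0.318 between treated and untreated arrays of the same replicate number, and at -0.234 to 0.0681 between other numbers. The numbers were therefore taken as paired in these groups, from the values and not the labels. Each group was centred on its own mean, so positive values at some pairs force negative ones at others. The p-values of the blocked fit rest on a pairing chosen from these same values and are no separate support. The fits were also run on simulated data with independent noise. The planted differences were all larger than any member difference after DKK1, so this run says nothing about differences that small. The alternatives were the replicate block, no filter, quantile normalisation, one median for all arrays, log2(value + 16), no intensity trend, 1 probe set or the mean of probe sets per gene, only the 6 arrays compared, and each array left out. All were listed at the outset.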

Additional observations from a re-analysis of the deposited data

How the results depend on the processing

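For members against primary RPCs, no alternative turned a direction. In the comparison with untreated cells 11 of 129 values under other settings and 14 of 153 with an array left out lost the call. In the comparison with treated cells 6 of 129 and 13 of 153 lost it and 2 of 153 gained it. The counts of called members ran from 14 to 16 and from 12 to 15 with an array left out, and stayed at 0 for DKK1 against untreated cells. Over all probe sets the calls ran from 11511 to 13865 and from 11537 to 13947. With 1 probe set per gene they were 7060 and 7034, and with probe sets averaged by gene 6928 and 6900, where fewer features were tested. The replicate block on the 6 ESC-RPC arrays gave 61 calls between DKK1-treated and untreated cells, and no intensity trend gave 6, where the cause was not tested. The block changed no other member call, and the block on 9 arrays ended the untreated Mcm6 call (limma adjusted p = 0.0699). Bub1 turned to -0.47 and -0.44 with the mean of its probe sets, and the cause was not tested. Between treated and untreated cells, leaving out an array turned the direction at Ccnd1 1417420_at (-0.26 to 0.0020), Ccnd2 1416123_at (-0.23 to 0.078), Ccnd3 1415907_at (-0.11 to 0.19), Cdk6 1435338_at (-0.26 to 0.077) and Cdk6 1460291_at (-0.14 to 0.17). It also turned the ratios of Ccnd1 to Ccnd2 (-0.000419 to 0.104) and Cdk4 to Cdk6 (-0.147 to 0.122). Scaling moved the median of all probe sets by at most 0.07 in log2. Dim probe sets give only bounds.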
